A study of Homo sapiens with 3 samples.

Results

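The genes for the chromatin proteins DEK, ATAD2 and TOP2A and for 7 high mobility group (HMG) proteins, HMGB1, HMGB2, HMGB3, HMGN1, HMGN2, HMGN3 and HMGA1, were followed through the single-cell RNA sequencing (scRNAseq) of breast cancer spheroids under CDK4/6 inhibition. These 10 genes, of 22494 genes with a symbol in the count tables, were chosen by their symbols. DEK, ATAD2 and TOP2A were selected on measured values, namely a high ratio of sensitive cells in coculture over sensitive cells in monoculture. That ratio is therefore given below as a description and supports nothing. The 7 HMG genes were added as a part of their family, and further HMG genes are among the related genes below. The choice was made with earlier results of these data known, so counts of the 7 HMG genes are descriptions too. All 10 genes had a row in each of the 3 count tables, and all 10 passed the minimum level of 5 CPM (UMIs of a gene scaled to a fixed total of UMIs per population) in each comparison.

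The cells were CAMA-1, an estrogen receptor-positive luminal breast cancer line, in its drug-sensitive parental form labeled with Venus and in a ribociclib-resistant derivative labeled with mCherry, which had been selected by long growth in the drug. Spheroids were plated from 2000 cells as 100% sensitive, 100% resistant, or 50% of each, and were harvested after 11 days. All spheroids received 1 µM ribociclib, so there was no untreated arm, and each composition gave 1 library. The deposited annotation split the coculture by lineage into 4 populations in all, sensitive monoculture with 3329 cells, sensitive coculture with 2059 cells, resistant coculture with 6292 cells and resistant monoculture with 7557 cells. It also gave each cell a phase, G1, S or G2M. Because each condition was 1 library and cells are not replicates, no p-value was computed, and every interval below is a 95% interval that covers counting error only. A difference between libraries therefore cannot be told apart from a difference between conditions.

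DEK binds and supercoils DNA and acts as a histone chaperone. ATAD2 is an ATPase whose bromodomain binds acetylated histones, and it is known as a coactivator of the estrogen receptor, E2F factors and MYC. TOP2A is the topoisomerase that untangles sister chromatids before they part, and it is made mostly from S phase to mitosis. HMGB proteins bend DNA with their HMG boxes, HMGN proteins bind nucleosomes and loosen them in competition with linker histones, and HMGA1 binds AT-rich DNA through AT hooks. Ribociclib inhibits CDK4 and CDK6, which keeps RB bound to E2F factors and holds cells in G1, so transcripts made in S, G2 and M phase drop when it works.

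The genes lie apart from each other in the genome. The places of all but ATAD2 are given here in GRCh37, the build on which the reads were aligned (genes as drawn in the later GENCODE 44 lift). DEK is on the minus strand of chr6:18224091-18264779, and TOP2A on the minus strand of chr17:38544777-38574148. HMGB1 is at chr13:31030841-31191734 (minus), HMGB2 at chr4:174252527-174255583 (minus) and HMGB3 at chrX:150148982-150159244 (plus). HMGN1 is at chr21:40714241-40721573 (minus), HMGN2 at chr1:26798931-26803133 (plus), HMGN3 at chr6:79910962-79944406 (minus) and HMGA1 at chr6:34204650-34214008 (plus). Several HMG genes have many processed copies, with 48 annotated pseudogenes for HMGB1, 38 for HMGN2, 32 for HMGN1, 29 for HMGB3 and 8 for HMGA1. Of these copies only HMGA1P4 had a row of its own, with 40 to 106 UMIs per population, and how reads shared with the other copies were counted was not tested.

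The stretch of 250 bases before the start of the gene was read for the genes with an entry in RefSeq's promoter table (GRCh38.p14), which covered 8 of the 10 genes and left out ATAD2 and HMGB2. It was searched on both strands for the CCAAT box (CCAAT or ATTGG, the site of NF-Y), for the cell cycle homology region or CHR (TTTGAA or TTCGAA and their complements, a site of the MuvB complexes), and for the E2F letters TTTGGCGC, TTTGCCGC, TTTCGCGC or TTTCCCGC. Windows of this length held CCAAT in 32.0%, CHR letters in 14.3% and E2F letters in 2.79% of all 35116 promoters of the table. Shown here, 5′ to 3′ with CCAAT and CHR matches in capitals, are 4 genes that passed the cutoff used below between G1 and G2M cells and, last, HMGN3, which rose by less.
DEK, chr6:18264531-18264780, minus strand: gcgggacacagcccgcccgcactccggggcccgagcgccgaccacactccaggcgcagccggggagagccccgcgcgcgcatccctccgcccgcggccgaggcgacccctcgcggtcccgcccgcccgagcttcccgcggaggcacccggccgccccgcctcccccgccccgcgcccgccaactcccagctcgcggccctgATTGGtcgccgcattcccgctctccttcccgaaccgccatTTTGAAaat
TOP2A, chr17:40417897-40418146, minus strand: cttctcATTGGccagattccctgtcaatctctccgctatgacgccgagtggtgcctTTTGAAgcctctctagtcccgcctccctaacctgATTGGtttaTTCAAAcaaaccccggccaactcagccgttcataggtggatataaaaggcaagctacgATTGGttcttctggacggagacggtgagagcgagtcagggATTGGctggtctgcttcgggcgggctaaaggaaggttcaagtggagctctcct
HMGN2, chr1:26472190-26472439, plus strand: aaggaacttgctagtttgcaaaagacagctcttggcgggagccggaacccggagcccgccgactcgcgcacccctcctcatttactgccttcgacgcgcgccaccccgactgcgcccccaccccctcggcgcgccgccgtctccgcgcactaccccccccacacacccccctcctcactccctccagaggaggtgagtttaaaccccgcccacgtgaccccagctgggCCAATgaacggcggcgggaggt
HMGB3, chrX:150983085-150983334, plus strand, first of 2 listed starts: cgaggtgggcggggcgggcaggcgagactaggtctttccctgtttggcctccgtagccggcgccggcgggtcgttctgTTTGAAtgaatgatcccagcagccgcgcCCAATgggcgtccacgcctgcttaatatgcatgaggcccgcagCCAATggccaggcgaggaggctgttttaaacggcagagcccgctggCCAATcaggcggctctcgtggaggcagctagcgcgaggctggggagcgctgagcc
HMGN3, chr6:79234683-79234932, minus strand: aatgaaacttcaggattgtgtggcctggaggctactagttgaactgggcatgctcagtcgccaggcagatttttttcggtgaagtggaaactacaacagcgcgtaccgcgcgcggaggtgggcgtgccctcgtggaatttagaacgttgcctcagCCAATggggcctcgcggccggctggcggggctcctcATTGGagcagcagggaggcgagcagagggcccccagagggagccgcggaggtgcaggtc
The TOP2A window held 4 CCAAT boxes and 2 CHR matches, the DEK window 1 of each, the HMGB3 window 3 CCAAT boxes and 1 CHR match, and the HMGN2 window 1 CCAAT box. HMGN3 had 2 CCAAT boxes and no CHR match. These letters did not divide the genes past the cutoff from HMGN3, since HMGN2 had no CHR match either. HMGA1, which also passed the cutoff in G2M cells, had no CHR match in either of its windows and 1 CCAAT box in the second, the second HMGB3 window had neither motif, and of the 3 HMGB1 windows 1 held a CHR match and 1 held neither motif. HMGN1 had 2 CCAAT boxes and no CHR match. No E2F match was found in any of the 12 windows of the 8 genes, which says only that these letters are absent there.

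The cells carried the markers of the labeled line. All 7 luminal markers (ESR1, GATA3, FOXA1, KRT8, KRT18, KRT19 and EPCAM) were detected in each population and summed to between 7659 and 9605 CPM. The 6 genes for leukocytes, fibroblasts and basal epithelium that had a row summed to between 2.68 and 6.79 CPM. In each population other than resistant coculture, 2 of these 6 genes had no UMI. The phases differed strongly. G1 cells made up 89.0% of the sensitive cells in monoculture and 55.3% of those in coculture, against 49.7% of the resistant cells in coculture and 50.0% in monoculture. In the same order the median cell held 27622, 34055, 30687 and 35442 UMIs, with a median mitochondrial share of 20.9%, 17.3%, 15.2% and 15.4%. Between 7 and 17 cell barcodes were shared by any pair of libraries.

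In whole populations, 8 of the 10 genes were higher in sensitive coculture than in sensitive monoculture by a log2 ratio of at least 0.5. This cutoff on the ratio of CPM + 1 is what higher and lower mean in the counts below, and 6.45% of all 8763 genes tested were higher by it. The choice of DEK, ATAD2 and TOP2A used this contrast, so nothing is read from the count. CPM sets every population to the same total, so a level is a share of the RNA counted. TOP2A in sensitive cells stood at 67.8 CPM in monoculture and 213 CPM in coculture, and in resistant cells at 208 CPM in coculture and 157 CPM in monoculture. Values given in a row below follow that order. DEK stood at 89.1, 223, 242 and 212 CPM, and ATAD2 at 40.2, 103, 108 and 87.5 CPM. Sensitive monoculture was thus the low population for each of these 3 genes, with no overlap of its interval with the others. The log2 ratio of sensitive coculture over sensitive monoculture was 1.64 for TOP2A, 1.34 (1.29 to 1.40) for ATAD2 and 1.31 (1.28 to 1.35) for DEK.

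The HMG genes were spread over a wide range. HMGB2, a paralog of HMGB1 known to be made in proliferating cells, stood at 29.0, 68.6, 83.6 and 78.7 CPM, a log2 ratio of 1.21 for sensitive coculture over monoculture. HMGN2 stood at 366, 686, 621 and 574 CPM, a log2 ratio of 0.91. HMGB1 was at 993, 1467, 1358 and 1093 CPM and HMGA1 at 55.3, 85.2, 99.3 and 105.0 CPM, with log2 ratios of 0.56 and 0.62. HMGB3 was at 50.6, 73.7, 79.2 and 93.2 CPM (log2 ratio 0.53). As for DEK, sensitive monoculture was alone at the bottom for each of these 5 genes. Counting intervals are narrow for genes with many UMIs. The share of all genes with intervals set apart in this way was not computed, here or below, so such separation is only described. The 2 genes below the cutoff were HMGN1, at 585, 730, 616 and 532 CPM (0.32), and HMGN3, at 178, 174, 187 and 188 CPM (-0.03). HMGN3 was the flattest of the 10 genes, and its intervals in both sensitive populations overlapped.

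**Figure D1:**
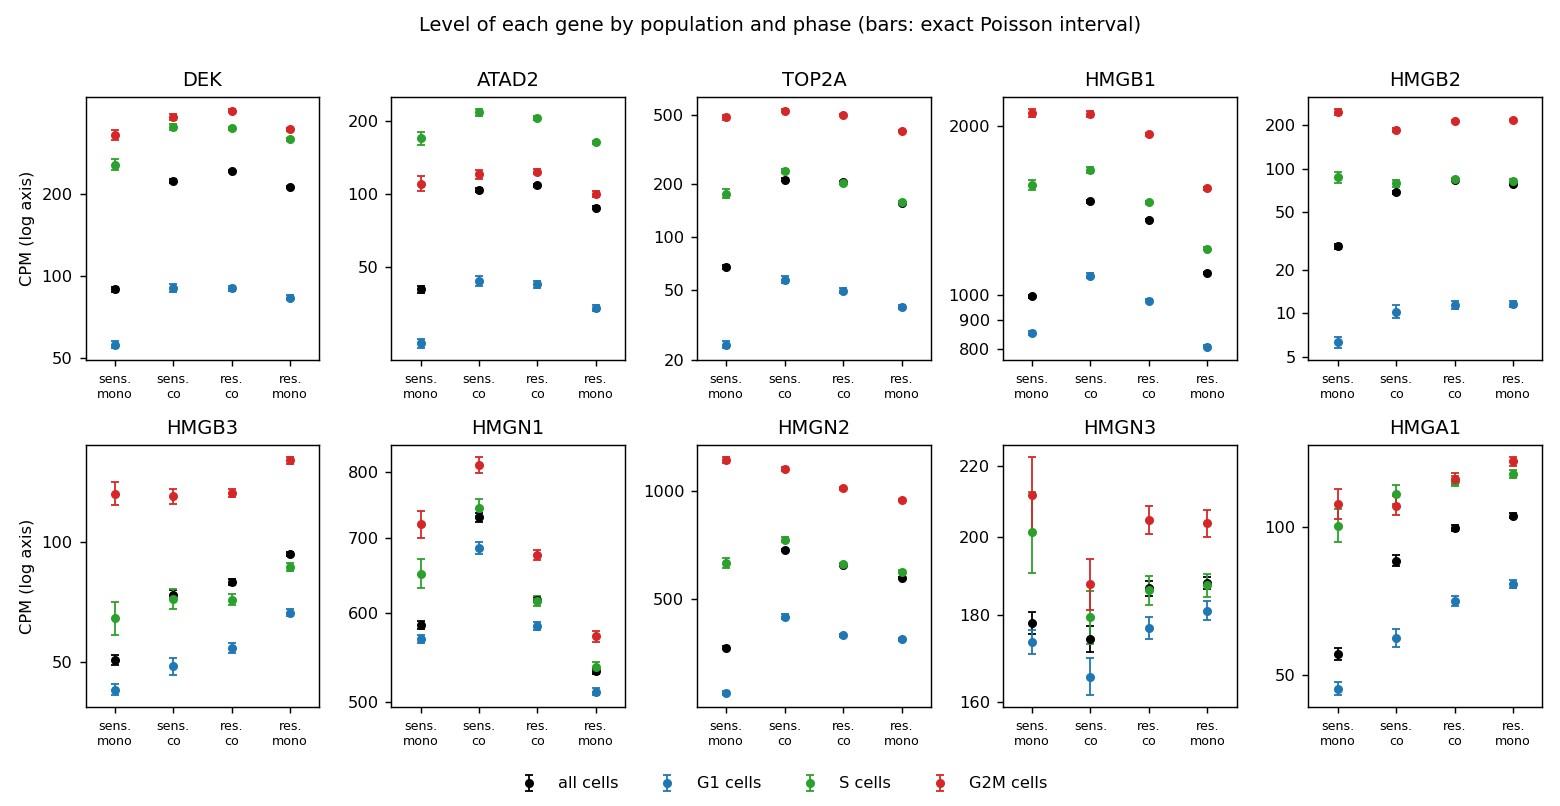
Level of each of the 10 genes in CPM (log axis) in each of the 4 populations, for all cells (black) and for G1, S and G2M cells (colors), with exact Poisson intervals. DEK, ATAD2, TOP2A, HMGB2, HMGB3, HMGN2 and HMGA1 are lowest in sensitive monoculture among all cells and among G1 cells, whereas HMGN3 stays between 166 and 212 CPM in every population and phase.

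Within each population the level of most of these genes depended on phase. The lists supplied with Seurat, the software the authors used, hold ATAD2 for S and TOP2A and HMGB2 for G2M, and the sources used here do not name the lists behind the deposited scores. For these 3 genes the difference between phases may therefore be built into the labels and is only described. Against G1 cells of the same population, 8 genes were higher in S cells of sensitive monoculture (9.04% of all genes) and of sensitive coculture (7.37%). In resistant coculture (6.59%) and resistant monoculture (6.76%) there were 7, without HMGB3. In G2M cells 8 genes were higher in each population, against 12.5%, 8.22%, 8.15% and 9.20% of all genes. HMGN1 and HMGN3 were below the cutoff in every one of these comparisons. Of the 7 genes that are not on the Seurat lists, 5 were higher in G2M cells of each population and 5, 5, 4 and 4 in S cells.

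DEK, which is not on those lists, rose steeply out of G1. In sensitive monoculture it stood at 55.8 CPM in G1, 256 in S and 329 in G2M cells, and in resistant monoculture at 83.1, 316 and 345 CPM. ATAD2 was highest in S cells, with 169 CPM in sensitive monoculture and 216 in sensitive coculture, against 110 and 120 CPM in G2M cells. TOP2A and HMGB2 had their highest level in G2M cells, TOP2A with 405 to 527 CPM and HMGB2 with 185 to 246 CPM across the 4 populations. HMGN2 rose from 273 CPM in G1 to 1225 CPM in G2M cells of sensitive monoculture and from 386 to 947 CPM in resistant monoculture. HMGB1 rose from 854 to 2111 CPM and HMGB3 from 42.7 to 132 CPM between the same phases of sensitive monoculture. HMGA1 was about as high in S as in G2M cells, with 100.4 and 111 CPM in sensitive monoculture. HMGN1 and HMGN3 moved least. HMGN1 stood at 569 CPM in G1 and 720 in G2M cells of sensitive monoculture, a log2 ratio of 0.34.

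Since the share of cycling cells was so different, the comparison was repeated among G1 cells alone. Of the 10 genes, 5 were higher in sensitive coculture than in sensitive monoculture, where 4.28% of 8708 genes were. DEK, ATAD2 and TOP2A were selected on this contrast, so nothing is read from that count, and of the 7 HMG genes 2 were higher. TOP2A stood at 24.4, 57.2, 49.6 and 40.1 CPM, and the log2 ratio of sensitive coculture over monoculture was 1.20 (1.11 to 1.28). All 4 intervals were separate, with sensitive coculture on top and sensitive monoculture at the bottom. ATAD2 stood at 24.1, 43.6, 42.3 and 33.8 CPM, with a log2 ratio of 0.83 (0.74 to 0.92), and its coculture levels overlapped. DEK was at 55.8, 90.2, 89.8 and 83.1 CPM, with a log2 ratio of 0.68 (0.62 to 0.74), and here too both cocultures overlapped. HMGN2 was at 273, 447, 397 and 386 CPM (0.71, 0.68 to 0.74), with no overlap between populations. HMGB2 was at 6.30, 10.3, 11.5 and 11.6 CPM (0.62, 0.45 to 0.80), where all populations other than sensitive monoculture overlapped.

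The other 5 genes stayed below the cutoff in G1 cells. HMGB1 was at 854, 1081, 976 and 808 CPM, a log2 ratio of 0.34 for sensitive coculture over monoculture, and HMGA1 at 47.0, 59.4, 70.7 and 76.4 CPM, a log2 ratio of 0.33. HMGN1 was at 569, 685, 584 and 511 CPM (0.27) and HMGB3 at 42.7, 48.8, 54.3 and 66.4 CPM (0.19). HMGN3 was at 173, 166, 177 and 181 CPM (-0.07). The order of HMGB1 and HMGN1 thus put sensitive coculture on top and resistant monoculture at the bottom, while HMGB3 and HMGA1 climbed from sensitive monoculture through both cocultures to resistant monoculture, with separate intervals at each step. Over all 10 genes the median log2 ratio in G1 cells was 0.48, and over all genes tested it was -0.09. DEK, ATAD2 and TOP2A were selected on this contrast, so nothing is read from the median of the 10 genes.

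Most markers of cycling cells moved with these G1 values. MKI67, CDK1, CCNB1, PCNA and MCM5 summed to 91.4, 134, 138 and 142 CPM in G1 cells. MKI67 stood at 3.88, 11.3, 10.4 and 10.3 CPM, and CDK1, CCNB1 and MCM5 were likewise lowest in sensitive monoculture. PCNA went the other way between the sensitive populations, at 27.6, 23.4, 25.6 and 31.1 CPM. The median G1 cell of these populations held 26713, 31964, 28687 and 33368 UMIs and a mitochondrial share of 21.2%, 19.2%, 16.2% and 16.7%. The part of these markers, of depth and of mitochondrial share in the G1 values was not tested. Of the cells called G1, 12.6% had an S or G2M score within 0.05 below the limit of 0 in sensitive monoculture, and 38.8%, 39.5% and 41.3% in the other populations. With those cells left out, TOP2A kept a log2 ratio of 1.19 in sensitive coculture over monoculture, ATAD2 had 0.61, HMGN2 0.60, DEK 0.58 and HMGB2 0.41. RNA from resistant cells in the droplets of sensitive coculture cells is another value to set beside them. If 10% of the RNA of sensitive coculture were resistant coculture RNA of all phases and were taken away, the G1 log2 ratio would be 0.71 for TOP2A, 0.58 for ATAD2 and 0.39 for DEK, and it would turn to -1.24 for HMGB2. That share was assumed and not measured.

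**Figure D2:**
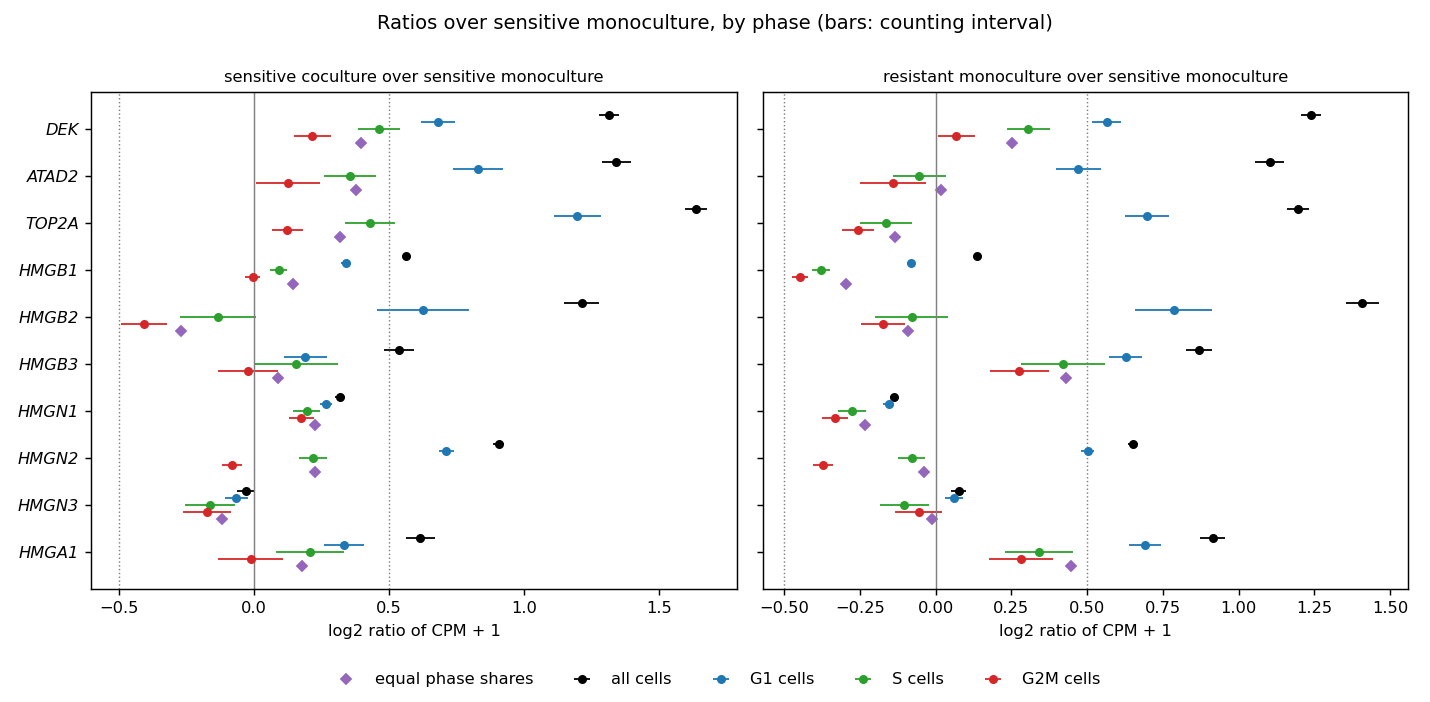
Log2 ratio of CPM + 1 over sensitive monoculture for the 10 genes, in sensitive coculture (left) and resistant monoculture (right), for all cells, for G1, S and G2M cells, and at equal phase shares (diamonds), with counting intervals and dotted lines at 0.5 either side of 0. The all-cell ratios of DEK, ATAD2, TOP2A and HMGB2 lie above 1, and their S and G2M ratios all lie under 0.5.

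In S cells and in G2M cells no gene passed the cutoff in sensitive coculture against sensitive monoculture, where 10.3% and 10.8% of all genes did in one direction or the other. Most genes of any kind stayed short of the cutoff too, so nothing is read from these counts. DEK reached 0.46 in S cells and 0.22 in G2M cells, TOP2A 0.43 and 0.12, and ATAD2 0.35 and 0.13. HMGB2 went the other way in G2M cells, with 246 CPM in sensitive monoculture and 185 CPM in sensitive coculture, a log2 ratio of -0.41 (-0.49 to -0.32). Only 176 S and 190 G2M cells of sensitive monoculture stand behind these values. Weighting G1, S and G2M cells of each population by the same UMI shares (52.0%, 24.1% and 23.9%, those of sensitive coculture) gave the ratio at equal phase shares. It was 0.40 for DEK, 0.38 for ATAD2, 0.32 for TOP2A, 0.23 for HMGN2, 0.22 for HMGN1, 0.18 for HMGA1, 0.14 for HMGB1 and 0.09 for HMGB3. It was -0.12 for HMGN3 and -0.27 for HMGB2, whose unweighted ratio had been 1.21. With the phases set equal, none of the 10 genes was past 0.5, where 8.46% of all genes were in one direction or the other. Nothing is read from that count either. What was left of the unweighted log2 ratio of DEK was 30.2%. DEK, ATAD2 and TOP2A were selected on that unweighted ratio, so what is left of it is only described. For ATAD2, TOP2A and HMGB2 the weighting rests on phase labels that may have been scored with these same genes, so their values at equal phase shares are only described.

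The share of cells with a transcript was read after each cell had been thinned to 5000 UMIs, which left out no cell since the shallowest held 9564. Among G1 cells, TOP2A was seen in 11.2% (10.1% to 12.4%), 26.9%, 20.4% and 18.5%. Unthinned, the shares were 40.1%, 76.4%, 68.4% and 65.5%. DEK was seen in 24.8%, 35.3%, 34.1% and 32.3% of thinned G1 cells, and ATAD2 in 10.7%, 18.1%, 18.3% and 14.3%. HMGN2 was seen in 65.9%, 78.0%, 77.4% and 73.9%. HMGB2 was rare in G1, at 3.04%, 4.75%, 5.50% and 5.53%, and the intervals of both sensitive populations overlapped. HMGN3 was seen in 55.1% to 57.1% of thinned G1 cells in all populations. No cell type that should lack these genes was in the files, so how much of these shares free RNA could give was not tested.

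Resistant monoculture was also compared with sensitive monoculture, which asks how the lineages differ under the drug when grown apart. Among all cells 7 of 10 genes were higher, where 8.73% of 8691 genes were. DEK, ATAD2 and TOP2A were selected for a high ratio over these same sensitive monoculture cells, so nothing is read from that count, and of the 7 HMG genes 4 were higher. The log2 ratio was 1.41 for HMGB2, 1.24 for DEK, 1.20 for TOP2A, 1.10 for ATAD2, 0.91 for HMGA1, 0.87 for HMGB3 and 0.65 for HMGN2. HMGB1 (0.14), HMGN3 (0.08) and HMGN1 (-0.14) were below the cutoff. This comparison shares its sensitive monoculture cells with the one above, so the values stand side by side and no overlap is drawn from them.

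In G1 cells 6 genes were higher in resistant than in sensitive monoculture, where 6.49% of 8629 genes were. For the same reason nothing is read from that count, and of the 7 HMG genes 4 were higher. They were HMGB2 (0.79, 0.66 to 0.91), TOP2A (0.70, 0.63 to 0.77), HMGA1 (0.69, 0.64 to 0.74), HMGB3 (0.63, 0.57 to 0.68), DEK (0.56, 0.52 to 0.61) and HMGN2 (0.50, 0.48 to 0.52). HMGN2 sat at the cutoff itself. The count was 3 with the G1 cells near the score limit left out, which put DEK at 0.40, HMGN2 at 0.41 and HMGB3 at 0.49. It was also 3 with a pseudocount of 10 CPM, which put HMGB2 at 0.40, HMGN2 at 0.49 and DEK just under 0.5. The share of all genes at these settings is not given, so nothing is read from these counts either. Among cells under 20% mitochondrial UMIs, HMGN2 had 0.37. ATAD2 had 0.47 among all G1 cells, just short of the cutoff, and 0.58 with TMM scaling, which corrects for differences in composition. HMGB1 had -0.08 on the plain UMI total and 0.03 with TMM, so its direction depended on the scaling, and the median over all genes was -0.12. In S cells (17.9% of all genes past the cutoff) and G2M cells (18.2%) none of the 10 passed it, and as most genes of any kind did not, nothing is read from this. Above 0, HMGB3 had 0.42 in S cells and 0.28 in G2M cells, HMGA1 0.34 and 0.28, and DEK 0.31 and 0.07. Below 0, HMGB1 had -0.38 and -0.45, HMGN2 -0.08 and -0.37, HMGN1 -0.28 and -0.33, and HMGN3 -0.10 and -0.06. TOP2A (-0.16 and -0.26), HMGB2 (-0.08 and -0.17) and ATAD2 (-0.05 and -0.14) were also below 0. Of the genes below 0 here, all but HMGN1 had a ratio above 0 among all cells. At equal phase shares none of the 10 was past 0.5, where 18.8% of all genes were in one direction or the other, and nothing is read from this count. HMGA1 had 0.45, HMGB3 0.43, DEK 0.25, ATAD2 0.02 and HMGN3 -0.01. TOP2A (-0.13), HMGB2 (-0.09), HMGN2 (-0.04) and HMGB1 (-0.30), like HMGN3, were below 0 there and above 0 among all cells, and HMGN1 had -0.23.

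**Figure D3:**
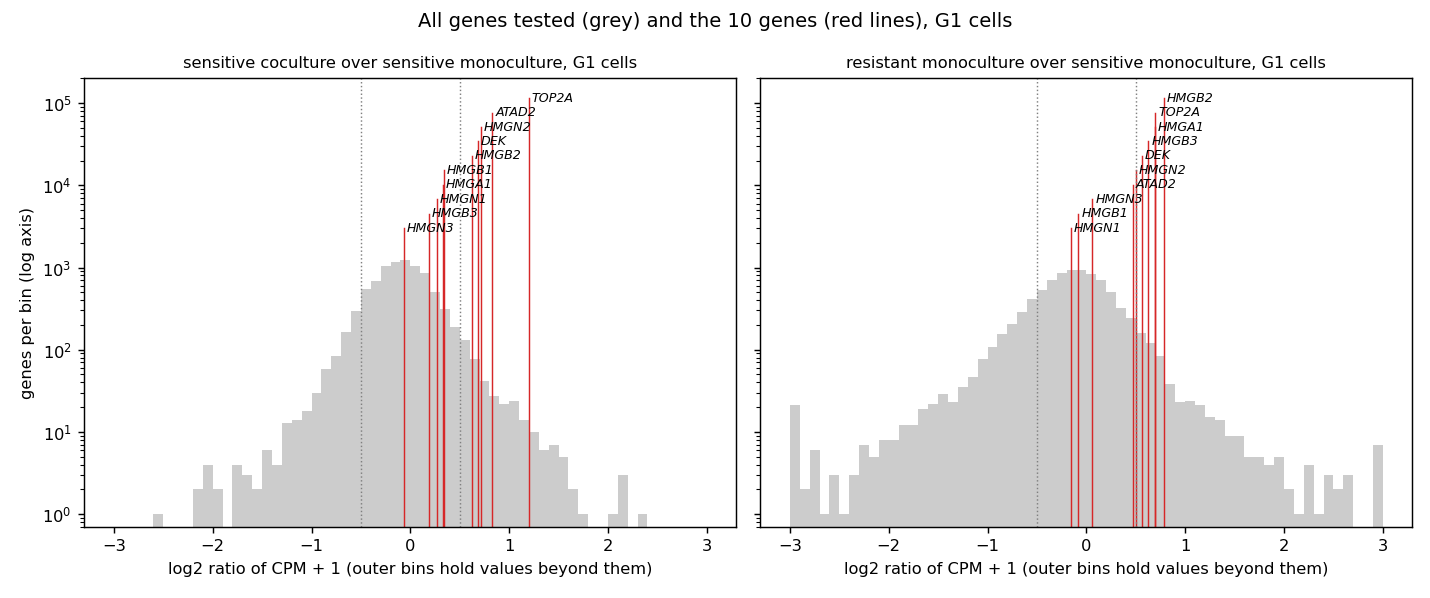
Number of genes per bin of log2 ratio (log axis) among G1 cells for all genes tested (grey), with red lines at the 10 genes, for sensitive coculture (left) and resistant monoculture (right) over sensitive monoculture. TOP2A at 1.20 lies farthest right on the left side, with 37 genes above it, and HMGB2 at 0.79 does so on the right side, with 205 genes above it. TOP2A was selected for a high ratio in the contrast on the left, so its place there supports nothing.

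Coculture was compared with monoculture in resistant cells as well, with no cells in common with the sensitive comparison. No gene passed the cutoff among all cells, where 2.10% of all genes did in either direction, or among G1 cells, where 2.15% did. Nothing is read from these counts, since most genes of any kind stayed short of the cutoff too. Counting intervals are narrow at these UMI totals, and the share of all genes with intervals off 0 was not computed. Among G1 cells ATAD2 had 0.31 (0.25 to 0.38), TOP2A 0.30 (0.24 to 0.36), HMGB1 0.27, HMGN1 0.19 and DEK 0.11. HMGB3 had -0.29 (-0.34 to -0.24) and HMGA1 -0.11 (-0.16 to -0.07). HMGB2 at -0.01 had an interval that held 0. Among cells of 20000 to 40000 UMIs, with all phases kept, TOP2A (0.52) and ATAD2 (0.51) just passed the cutoff in this comparison.

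The lineages were also compared inside the coculture. None of the 10 genes passed the cutoff between resistant and sensitive coculture cells among all cells (7.07% of all genes in either direction) or G1 cells (7.85%). Most genes of any kind stayed short of the cutoff too, so nothing is read from this count. The G1 log2 ratio of resistant over sensitive was -0.01 (-0.06 to 0.05) for DEK and -0.04 (-0.13 to 0.04) for ATAD2. DEK, ATAD2 and TOP2A were selected for a high ratio in these same sensitive coculture cells, so their values here are only described. The assumed 10% of resistant RNA of all phases was removed from the sensitive cells only, and a removal from both lineages was not tested. With that step on the sensitive cells, HMGB2 went from 0.15 to 2.01, past the cutoff. DEK had 0.29, ATAD2 0.21, and TOP2A turned from -0.20 to 0.29, and these shifts depend on the removal being made on 1 side. Without that step the ratio was -0.23 for HMGN1 and -0.17 for HMGN2, whereas HMGA1 had 0.25 and HMGB3 0.15. Both populations came from 1 library, so this is the one comparison between lineages with no difference of library in it.

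**Figure D4:**
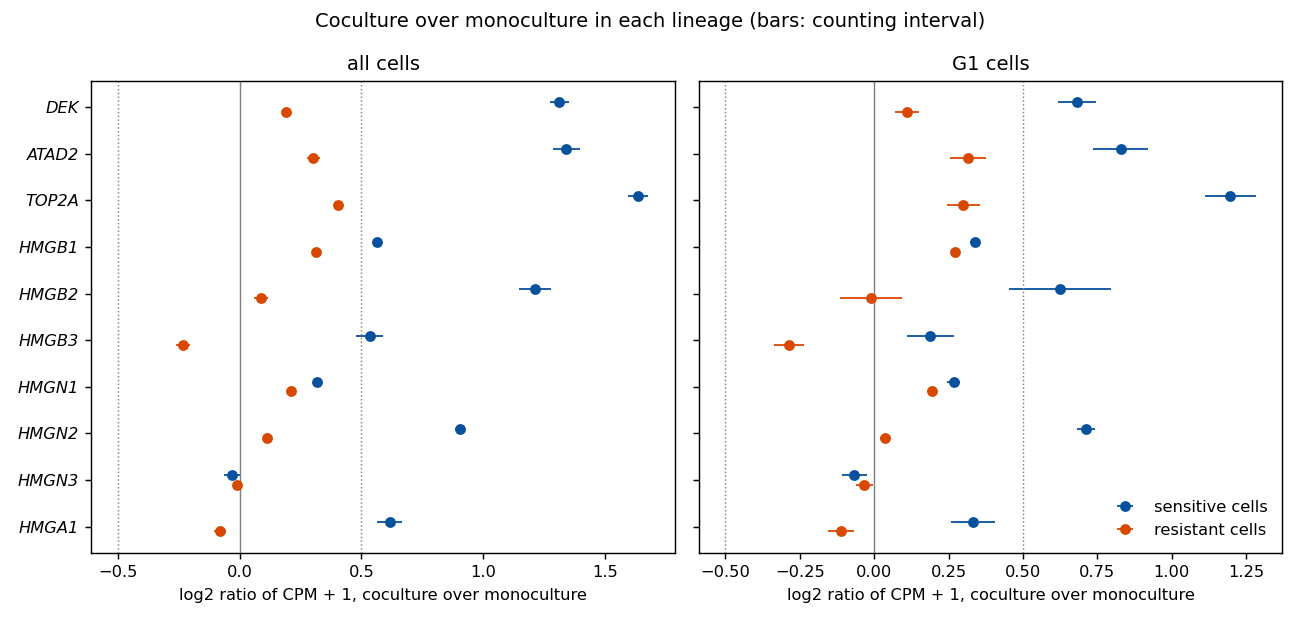
Log2 ratio of CPM + 1 for coculture over monoculture in sensitive cells (blue) and resistant cells (orange), among all cells and among G1 cells, with counting intervals and dotted lines at 0.5 either side of 0. HMGB3 and HMGA1 lie right of 0 in sensitive cells and left of 0 in resistant cells in both panels.

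Across the deposited clusters of each population with at least 50 cells, 8 of the 10 genes, all but HMGN1 and HMGN3, had their highest level in a cluster with no more than 0.486% of its cells in G1. The share of all genes that did so was not computed, and the phase labels may have been scored with ATAD2, TOP2A and HMGB2. Clusters were also drawn from the expression of these same cells, so that count is a description and nothing is read from it. In sensitive monoculture TOP2A ranged from 8.45 CPM in cluster 8 (681 cells, 99.7% in G1) to 464 CPM in cluster 7 (232 cells, 0.43% in G1). DEK ranged from 53.9 CPM in cluster 4 to 369 CPM in cluster 7 of the same population, and HMGB2 from 5.19 CPM in cluster 8 to 240 CPM in cluster 7. In sensitive coculture the matching lowest levels were 55.1 CPM for TOP2A, 63.9 for DEK and 8.04 for HMGB2, all in cluster 4. Of the sensitive cells, cluster 4 held 58.4% in monoculture and 4.08% in coculture, and cluster 3 held 8.02% and 52.8%. Within cluster 3, 5.24% of the cells were in S in sensitive monoculture and 12.3% in sensitive coculture. In that order DEK stood there at 103 and 110 CPM, ATAD2 at 33.6 and 57.5 CPM and TOP2A at 41.6 and 72.2 CPM. HMGB2 stood at 19.4 and 14.0 CPM, and HMGN2 at 740 and 523 CPM. HMGN2 also split clusters of like G1 share in resistant cells, with 915 CPM in cluster 6 and 472 CPM in cluster 9 of resistant monoculture, where 52.6% and 60.2% of cells were in G1. HMGN3 varied by no more than 1.93-fold between clusters of any population, and HMGN1 by no more than 1.48-fold.

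**Figure D5:**
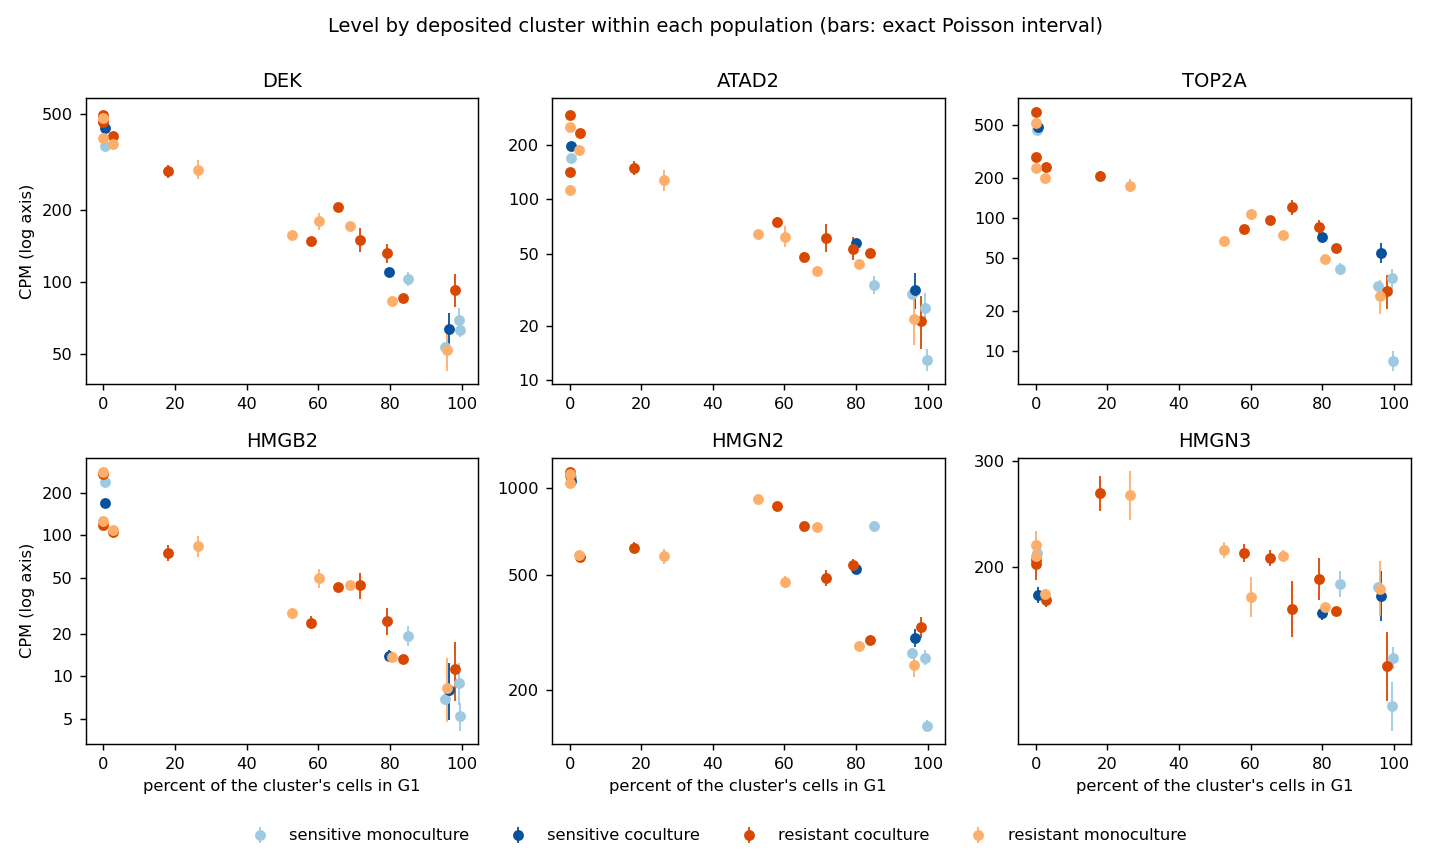
Level in CPM (log axis) of DEK, ATAD2, TOP2A, HMGB2, HMGN2 and HMGN3 in each deposited cluster of at least 50 cells, against the percent of the cluster's cells in G1, colored by population, with exact Poisson intervals. Clusters near 100% G1 hold the lowest TOP2A levels, down to 8.45 CPM, and HMGN3 varies least among the genes shown.

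The genes most alike in pattern were listed by Pearson correlation over the 12 sums of population and phase, among genes of at least 50 CPM on average. These sums share libraries and phase labels, so r is a description. Nearest to DEK were SRRM2 (0.988), EZH2 (0.986) and SNRPD1 (0.985). Nearest to ATAD2 were HELLS (0.993), a chromatin remodeler, and the replication genes GMNN (0.983) and MCM7 (0.975). Nearest to TOP2A were the mitotic genes NUSAP1 (0.997) and PRC1 (0.994), then MKI67 (0.988), and nearest to HMGB2 were MKI67 (0.994), the spindle checkpoint gene MAD2L1 (0.991) and DTYMK (0.990). Among the 10 genes themselves the closest pairs were TOP2A with HMGN2 and with HMGB2 (0.984 each), and the least alike were HMGN1 and HMGN3 (0.162).

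Other genes of the same machinery gave the surroundings. Of 7 lists with further HMG genes, topoisomerases, ATAD2 relatives, histone chaperones, condensin, cohesin, and linker histones with HP1, 47 genes were tested in G1 cells of sensitive coculture over sensitive monoculture. Of these, 6 were higher and 2 lower, where 4.28% of all genes were higher and 8.11% lower. Of the 8 further HMG genes tested among them, 1 was higher. The histone chaperones ANP32E, which removes H2A.Z, and ASF1B had log2 ratios of 1.08 and 1.02, BRD9 had 0.91, the condensin subunit NCAPG2 0.71, the HP1 protein CBX3 0.70 and the nucleosome binder HMGN5 0.52. The linker histone HIST1H1C stood at 285 CPM in sensitive monoculture and 181 CPM in sensitive coculture, a log2 ratio of -0.66. TOP2B, the paralog of TOP2A that is also made in resting cells, went from 36.8 to 27.4 CPM (-0.41), opposite to TOP2A but short of the cutoff. SSRP1, the HMG-box subunit of FACT, had 0.39, SMC4 0.35, TOP3B 0.30, STAG1 0.29 and SMC1A 0.23. In resistant over sensitive monoculture 3 of the 47 genes were higher in G1 cells, ASF1B (1.10), NCAPG2 (0.79) and SMC4 (0.51), and 3 were lower, HIST1H1C (142 against 285 CPM), CBX5 (-0.62) and H1F0 (-0.51). H1F0 was also the other lower gene in sensitive coculture (-0.57), and it and CBX5 are named after their values were seen. In resistant over sensitive monoculture 6.49% of all genes were higher and 17.5% lower, and of the 8 further HMG genes tested 0 were higher. All these lists except linker histones with HP1 had a median above that of all genes (-0.09) in sensitive coculture over monoculture, from 0.07 to 0.22, and that list had -0.15. In resistant over sensitive monoculture, 4 of the 7 lists had a median below that of all genes (-0.12), namely the further HMG genes (-0.13), topoisomerases (-0.15), ATAD2 relatives (-0.14) and linker histones with HP1 (-0.27).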

How the data were processed

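Spheroids of CAMA-1 cells were measured by 3′ scRNAseq in 3 libraries. The authors made the deposited counts with Cell Ranger 3.0.2 on GRCh37, as UMIs per gene and barcode. The deposited annotation held 3329, 8351 and 7557 cells of the 8643, 20227 and 11502 barcodes in sensitive monoculture, coculture and resistant monoculture. It gave each cell a population, a phase, a cluster, the deposited S and G2M score and the deposited mitochondrial percent, and 10 other columns were not used. Rows with no symbol (0.523% to 0.591% of UMIs) were left out.

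UMIs were summed over the cells of a population and phase and scaled to CPM with exact Poisson 95% intervals. Ratios were log2 of CPM + 1 with a counting interval, for genes averaging 5 CPM or more, and a gene was counted as higher or lower at 0.5 or more. Equal phase shares, cells thinned to 5000 UMIs, TMM scaling (edgeR 4.0.16, R 4.3.3) and the other alternatives are described with their values. Python 3.11.15, numpy 2.4.6, scipy 1.17.1 and pandas 2.3.3 were used, and the scripts were tested on simulated data. The authors predicted doublets with Scrublet and removed them before the annotation, and no doublet caller was run here. No p-value was computed because each condition was 1 library.

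The 10 genes, the lists and the alternatives were chosen with earlier results of these data known. Besides the 10 genes, the genes named were the 2 of each related list whose log2 ratio lay farthest from 0 among G1 cells of sensitive coculture over sensitive monoculture, and those most alike in pattern to DEK, ATAD2, TOP2A and HMGB2. One gene that this rule names is not reported here.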

Additional observations from a re-analysis of the deposited data

Results flagged for a closer look

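Among all cells and among G1 cells, HMGB3 and HMGA1 had log2 ratios of opposite sign with coculture in the sensitive and the resistant cells. For HMGB3 the log2 ratio of coculture over monoculture was 0.53 in sensitive cells and -0.23 in resistant cells among all cells, and 0.19 and -0.29 among G1 cells. For HMGA1 it was 0.62 and -0.080 among all cells, and 0.33 and -0.11 among G1 cells. In S cells the signs were opposite too, with 0.16 (an interval that held 0) and -0.27 for HMGB3 and 0.21 and -0.05 for HMGA1. In G2M cells the signs were the same, with -0.02 (-0.13 to 0.09) and -0.27 for HMGB3 and -0.01 (-0.13 to 0.11) and -0.12 for HMGA1. At equal phase shares the ratios in sensitive cells were 0.09 for HMGB3 and 0.18 for HMGA1. With 1 library per condition the difference between the lineages was not tested.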

How the results depend on the processing

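Of the counts of genes past the cutoff, 139 recomputed under another setting stayed within 1.5 times the reported count, 11 were lower and 2 were higher. With a cutoff of 1 in place of 0.5, sensitive coculture over sensitive monoculture gave 4 genes among all cells (1.61% of all genes were higher) and 1 among G1 cells (0.850%), and resistant over sensitive monoculture gave 4 (2.30%) and 0 (1.55%). The same cutoff gave 4 genes for S over G1 cells in sensitive coculture (2.47%), resistant coculture (2.30%) and resistant monoculture (2.37%). The counts that follow stand without the share of all genes at the same setting, so nothing is read from them about these genes. Among G1 cells, sensitive coculture over sensitive monoculture gave 2 genes with a minimum of 50 CPM, which leaves fewer genes, and 3 with 10% resistant coculture RNA removed. Removing that RNA, from sensitive coculture cells only, turned HMGB2 to -1.24 and gave 1 gene for resistant over sensitive coculture in G1 cells. Resistant over sensitive monoculture in G1 cells gave 3 genes with a pseudocount of 10 CPM and 3 with both phase scores under -0.05. Resistant coculture over resistant monoculture gave 2 genes among cells of 20000 to 40000 UMIs. Where no cause is named, the cause was not tested. Of 580 recomputed log2 ratios 20 changed sign. Of these, 18 had a reported ratio no farther from 0 than 0.087, most of them for DEK, ATAD2 and HMGN2 between cocultures or within resistant cells. The others were HMGB2 above and TOP2A in G1 cells of resistant over sensitive coculture (-0.20, and 0.29 with the RNA removed). The intervals cover counting error only, and no library was repeated. No paired analysis was possible because each condition had 1 library and no result comes from a test.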
